A study of Mus musculus with 12 samples.

Results

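Genes of NF-κB signalling and of its feedback inhibition were followed in ENS primary cultures, that is, cultures of the enteric nervous system of the mouse, across untreated controls, 6-mercaptopurine (6-MP), LPS and LPS + 6-MP. The list holds 33 genes, chosen by symbol: subunits of the transcription factor, IκB inhibitors, kinases, ubiquitin editors, TRAF proteins with their adaptors, and an RNase. Of these, 28 are named in the platform's table, with 1 transcript cluster each, among 19505 named genes. Nfkb1, Ripk2 and Traf3 are named only in a supplementary table of genes that changed with LPS, so their values are given but they stand outside the counts. Chuk and Ripk1 have no named cluster and were not analysed here.
By the labels the cultures came from the gut of e14.5 mouse embryos, and the study's methods name the Sox10flox mouse line, whose modification was said to play no part. All 12 cultures shared this line, the medium and total RNA on Clariom S arrays, with 3 arrays per group from independent experiments. The 6-MP cultures received 50 µM 6-MP for 16 h, the LPS cultures 10 ng/ml LPS for 6 h, and the LPS + 6-MP cultures 6-MP first and LPS after it. Values are the deposited log2 levels of a cluster. A gene was called dim at a group mean below 5.78, under which 90% of the 1450 clusters of chemosensory receptor genes lay (the receptor level).

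NF-κB is a family of dimers that IκB proteins hold in the cytoplasm. LPS and inflammatory cytokines activate the IκB kinase complex through ubiquitin chains built by TRAF and cIAP ligases, IκB is degraded, and the freed dimers switch on inflammatory genes. Among the genes they switch on are their own inhibitors, which close the loop, and a slower non-canonical branch runs through NIK and the precursor that Nfkb2 encodes.

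The study's methods describe mixed cultures that contain neurons and glia, and the arrays carried transcripts of other cells of the gut wall as well. In controls 0 of 8 neuronal, 0 of 11 macrophage, 0 of 6 smooth muscle and 0 of 6 epithelial marker genes lay under the receptor level, against 3 of 6 glial ones. Of the 6 glial genes, Sox10 and S100b were dim in each of the 4 groups and Foxd3 in 2. Fabp7, Erbb3 and Gfap were dim in none, with control means of 10.65, 9.82 and 6.45. In such mixed cultures fewer cells of a type and less RNA per cell cannot be told apart. In each group 1 array stood apart on the second principal component (control 2, 6-MP 1, LPS 2 and LPS + 6-MP 1), with scores of 33.2 to 48.2 against -32.5 to -8.16 for the other 8 arrays. Relative to the other arrays of each group, their mean log2 difference was 1.95 over 8 interferon response genes, 0.81 over 6 epithelial, 0.72 over 8 neuronal and 0.24 over 6 glial genes, and -1.28 over 6 smooth muscle, -0.60 over 4 mesenchymal and -0.50 over 11 macrophage genes. The part of these lists in the differences of the members was not tested. Results are also given without these arrays where that changed a call.

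LPS stimulation resulted in higher expression of 17 of the 28 members and lower expression of 0, where passing required a 2-fold change and an adjusted p under 0.05 in limma, whereas 1.51% of all 22206 clusters were higher and 0.0946% lower. By role, 3 of 3 classical IκB genes, 2 of 3 nuclear IκB genes, 3 of 4 subunit genes, 5 of 8 ubiquitin editors, 1 of 4 kinases and 2 of 5 TRAF or adaptor genes passed, with no test of a difference between roles. The RNase gene Zc3h12a passed as well. The largest rises were those of Tnfaip3 (20.2-fold), which encodes the ubiquitin-editing inhibitor A20, and Tifa (12.6-fold), an adaptor of TRAF6. The median log2 change of the members was 1.48, beside -0.04 over all clusters. All 3 LPS arrays lay above all 3 control arrays for 23 members and below them for 0, against 6.88% and 8.18% of all clusters. Without the 4 arrays that stand apart 18 members passed, with Rela added, beside 406 of all clusters. With all arrays 356 of all clusters had passed.
The mean of 11 macrophage marker genes was 9.48 ± 0.49 (SD, n = 3 arrays) in controls, between 9.13 and 10.04, and 8.83 ± 0.30 with LPS, between 8.49 and 9.06. The mean of the 8 interferon response genes was 7.14 ± 1.24 in controls and 11.52 ± 0.83 with LPS. Their part in the changes of the members was not tested.

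**Figure D1:**
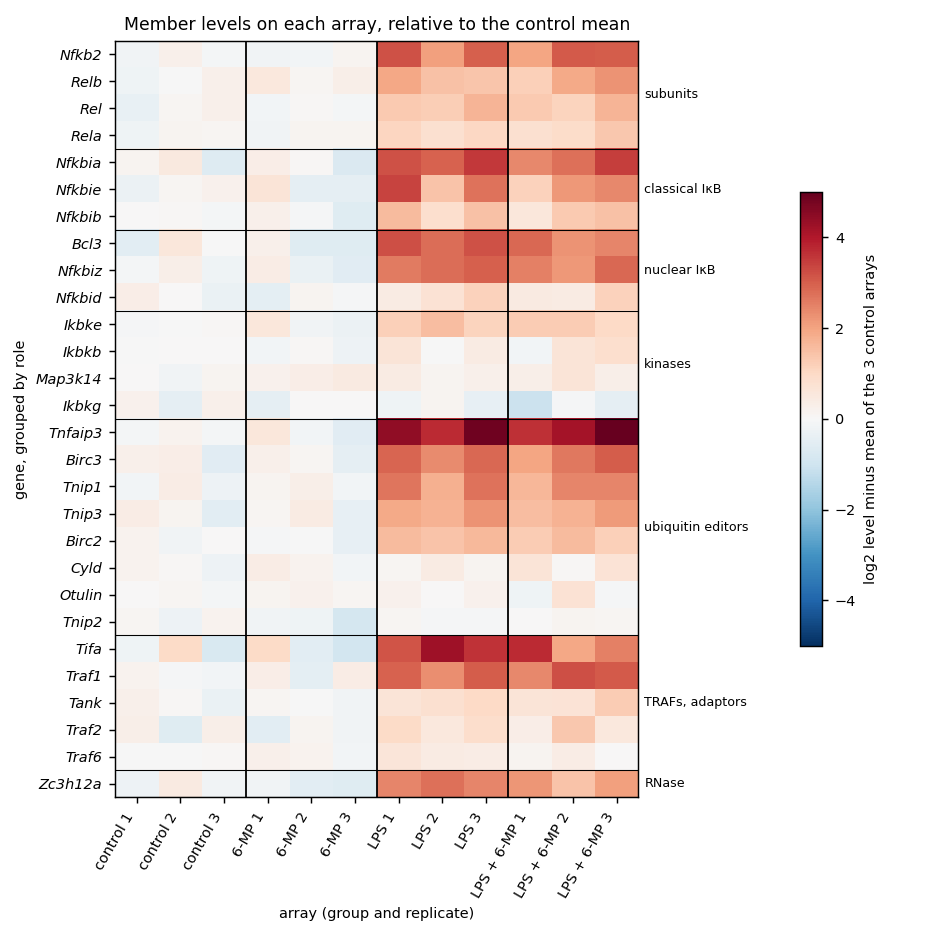
Heat map of the 28 members (rows, grouped by role and sorted by their LPS change) on the 12 arrays (columns, by group and replicate). Colour gives the log2 level minus the mean of the 3 control arrays; the 6 arrays with LPS are red for the members that passed, with Tnfaip3 at the top of the scale, and pale for Cyld, Otulin, Tnip2 and 3 of 4 kinases.

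The DNA upstream of the members was read for κB sites, the sequences NF-κB dimers bind. RefSeq promoters of GRCm38.p6, from 250 bases before to 50 after each annotated start, were held for 25 of the 28 members, and not for Ikbkb, Nfkbiz and Relb. The κB consensus was searched on both strands, and overlapping matches were each counted. It was found in a promoter of 12 of the 25 members (48.0%), whereas 9.55% of 27025 genes had it. Some genes have several promoters, and by promoter the shares were 44.7% of 38 and 8.46% of 32851. The consensus was found in 9 of the 15 members that rose with LPS and in 3 of the 10 that did not pass (Cyld, Nfkbid and Tank). By promoter these shares were 55.0% of 20 and 33.3% of 18. A looser form, GGG and CC with any 5 bases between them, was found in 11 of those 15 and 9 of those 10, beside 53.5% of all genes. The split between members that rose and the others thus ran the opposite way with the looser form. The 250 bases before the start are shown for 6 of the 7 members that rose and whose match lies there (the other is Tnip3), and for Birc3, which rose with no match in its window, each from 5′ to 3′ on the gene's own strand with matches in capitals and runs of overlapping matches joined. They lie at chr10:19015411-19015660 on the minus strand (Tnfaip3), chr12:55492648-55492897 minus (Nfkbia), chr19:46304487-46304736 plus (Nfkb2, the first of its promoters), chr17:45555450-45555699 plus (Nfkbie), chr11:54962941-54963190 minus (Tnip1), chr11:23770970-23771219 minus (Rel) and chr9:7873171-7873420 minus (Birc3).
Tnfaip3: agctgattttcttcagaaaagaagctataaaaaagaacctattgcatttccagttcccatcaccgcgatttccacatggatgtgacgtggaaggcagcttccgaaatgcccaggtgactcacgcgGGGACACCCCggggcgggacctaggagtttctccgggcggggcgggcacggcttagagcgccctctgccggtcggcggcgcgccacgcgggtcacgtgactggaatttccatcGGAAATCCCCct
Nfkbia: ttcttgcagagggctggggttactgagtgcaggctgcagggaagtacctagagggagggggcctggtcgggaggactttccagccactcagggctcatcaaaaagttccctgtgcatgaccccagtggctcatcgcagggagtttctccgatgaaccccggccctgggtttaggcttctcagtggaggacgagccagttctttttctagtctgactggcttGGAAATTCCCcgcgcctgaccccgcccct
Nfkb2: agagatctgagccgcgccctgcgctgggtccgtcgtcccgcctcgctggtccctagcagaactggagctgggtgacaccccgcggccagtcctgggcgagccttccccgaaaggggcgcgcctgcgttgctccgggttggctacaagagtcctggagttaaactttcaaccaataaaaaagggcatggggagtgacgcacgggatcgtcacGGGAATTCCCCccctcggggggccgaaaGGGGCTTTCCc
Nfkbie: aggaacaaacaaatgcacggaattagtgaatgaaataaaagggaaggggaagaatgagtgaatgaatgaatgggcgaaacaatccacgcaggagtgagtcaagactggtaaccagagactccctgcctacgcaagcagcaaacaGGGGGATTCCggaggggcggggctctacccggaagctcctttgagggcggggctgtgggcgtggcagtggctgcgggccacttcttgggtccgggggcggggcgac
Tnip1: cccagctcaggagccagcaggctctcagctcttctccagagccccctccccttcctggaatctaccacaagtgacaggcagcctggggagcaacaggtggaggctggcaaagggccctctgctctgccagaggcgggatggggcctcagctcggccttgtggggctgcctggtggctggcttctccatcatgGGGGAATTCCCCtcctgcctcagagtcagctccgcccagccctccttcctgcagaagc
Rel: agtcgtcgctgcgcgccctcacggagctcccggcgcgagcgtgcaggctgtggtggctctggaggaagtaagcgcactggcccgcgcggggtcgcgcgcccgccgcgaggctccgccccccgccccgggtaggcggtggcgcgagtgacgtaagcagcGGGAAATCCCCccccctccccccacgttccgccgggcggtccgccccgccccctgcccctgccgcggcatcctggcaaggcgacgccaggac
Birc3: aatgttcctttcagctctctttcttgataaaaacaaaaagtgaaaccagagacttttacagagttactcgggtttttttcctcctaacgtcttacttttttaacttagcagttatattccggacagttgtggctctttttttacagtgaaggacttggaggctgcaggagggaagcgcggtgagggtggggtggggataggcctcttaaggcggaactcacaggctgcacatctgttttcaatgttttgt
Counted from the start, with -1 the base before it, the promoter of Tnfaip3 shown held 2 matches that began at bases -125 and -12. The other promoter of Tnfaip3, at chr10:19011964-19012213, held 0. The match of Nfkbia began at base -29 and that of Nfkbie at -106. The 3 matches of Tnip1 began at -58, -57 and -56 and all overlapped, as did the 2 of Rel, at -92 and -91. Nfkb2 held 3 in the promoter shown, of which those at -39 and -38 overlapped and that at -11 lay apart. Matches in Bcl3 and Tifa lay after the start, at bases 3 and 34. No match lay in the windows of Birc2, Ikbke, Nfkbib, Traf1 and Zc3h12a, which also rose. A match is a description of these letters and was not tested for binding.

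Of the subunit genes, Nfkb2 responded most. Nfkb2, the gene of the precursor that both inhibits NF-κB and yields a DNA-binding subunit of the non-canonical branch, had log2 levels of 7.18, 7.60 and 7.27 in controls and 10.53, 9.40 and 10.35 with LPS. Every LPS array lay above every control array, with LPS 2 the lowest of its group. The change was 2.74 (SE 0.33, 6.70-fold, adjusted p = 0.000593 in limma). Relb, whose product pairs with that subunit, stood at 5.62, 5.79 and 6.06 in controls and 7.76, 7.29 and 7.21 with LPS, a rise of 1.60 (SE 0.26, adjusted p = 0.00552). Rel, the gene of c-Rel, rose 2.67-fold (1.42, SE 0.22, adjusted p = 0.00378), from 9.51, 9.96 and 10.13 to 11.18, 11.09 and 11.57. For both genes the groups did not overlap.
Rela, which encodes the main transactivating subunit, lay just under the fold limit. Its levels were 13.61, 13.98 and 13.93 in controls and 14.91, 14.66 and 14.86 with LPS, also with no overlap, and the change was 0.97 (SE 0.19, 1.96-fold, adjusted p = 0.0182). Without the 4 arrays that stand apart it was 1.12 (SE 0.22, adjusted p = 0.0401) and passed. Nfkb1, the canonical partner of Rela, had levels of 10.17, 10.28 and 10.68 in controls and 12.20, 11.90 and 12.45 with LPS. Its difference of 1.81 (SE 0.25) is a description only, because the cluster owes its name to a list of changed genes.

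The classical IκB genes all rose. Nfkbia encodes IκBα, which is degraded first and resynthesised from its own target gene. Its levels were 11.67, 12.02 and 10.85 in controls and 14.71, 14.47 and 15.06 with LPS, an increase of 3.23 (SE 0.36, 9.40-fold, adjusted p = 0.000335). Even the lowest LPS array exceeded the highest control array by more than the whole range of either group. Nfkbie, the gene of IκBε, was dim in controls at 4.52, 4.92 and 5.02 and reached 8.18, 6.24 and 7.54 with LPS. Its rise was at least 2.92-fold with the control values raised to the receptor level (fitted change 2.50, SE 0.47, adjusted p = 0.0152). LPS 2 lay far below the other 2 LPS arrays. The call was lost, at adjusted p values of 0.0531 to 0.0821, without control 1, control 3, LPS 1 or LPS 3. Nfkbib, the gene of IκBβ, rose 2.44-fold (1.29, SE 0.28, adjusted p = 0.0384), from 11.08, 11.09 and 10.94 to 12.62, 11.88 and 12.49. The call of Nfkbib was lost without any 1 of control 1, control 2, control 3, LPS 1 and LPS 3 (adjusted p = 0.104 to 0.182), and its adjusted p was 0.0913 with the replicate number as a block.
The nuclear IκB genes differed more among themselves. Bcl3, whose product binds NF-κB homodimers on DNA, stood at 9.09, 10.22 and 9.60 in controls and 12.88, 12.42 and 12.83 with LPS, and rose 8.42-fold (3.07, SE 0.31, adjusted p = 0.000165). Nfkbiz, which encodes the nuclear co-activator IκBζ, rose 6.87-fold (2.78, SE 0.26, adjusted p = 9.01e-05), from 9.39, 9.77 and 9.25 to 12.05, 12.25 and 12.45. For Nfkbid, the gene of IκBNS, the values were 6.66, 6.34 and 5.99 against 6.75, 7.06 and 7.48. These groups lay side by side without overlapping, and the difference of 0.77 (SE 0.27) did not pass (adjusted p = 0.326).

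Of the kinase genes, Ikbke alone passed. Ikbke encodes IKKε, a relative of TBK1 that also acts on interferon regulatory factors. Its levels of 9.09, 9.14 and 9.22 in controls and 10.36, 10.69 and 10.26 with LPS did not overlap, and the rise was 2.44-fold (1.28, SE 0.23, adjusted p = 0.00893). Ikbkb, the catalytic subunit of the IκB kinase complex, had values of 8.24, 8.27 and 8.26 in controls and 8.90, 8.24 and 8.66 with LPS. These overlapped, at a difference of 0.34 (95% interval -0.20 to 0.89, adjusted p = 0.813). Ikbkg, which encodes the regulatory subunit NEMO, gave -0.15 (interval -0.76 to 0.46, adjusted p = 0.95), with 7.61, 6.95 and 7.65 in controls and 7.21, 7.55 and 7.01 with LPS. Map3k14, the gene of NIK, the kinase of the non-canonical branch, gave 0.27 (interval -0.09 to 0.63, adjusted p = 0.742). Its values were 8.16, 7.97 and 8.26 in controls and 8.53, 8.27 and 8.39 with LPS, close together but without overlap. The 95% intervals of these 3 genes lay within a fold of 2, as did those of 79.3% of all clusters. The cluster of Ripk2, the kinase that acts below the NOD receptors, stood at 8.53, 8.05 and 8.18 in controls and 11.08, 10.40 and 11.50 with LPS (difference 2.74, SE 0.36), which is again a description only.

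The ubiquitin editors split into inducible genes and genes without a detectable difference. Tnfaip3 had the largest change of all members. Its levels were 9.22, 9.48 and 9.21 in controls and 13.72, 13.03 and 14.16 with LPS, an increase of 4.34 (SE 0.38, adjusted p = 5.27e-05). The gap between the groups was several times the spread within either. The ubiquitin ligase gene Birc3, which encodes cIAP2, rose 6.57-fold (2.72, SE 0.31, adjusted p = 0.000454), from 12.59, 12.68 and 11.78 to 15.26, 14.73 and 15.21. Birc2, which also lies on chromosome 9, encodes cIAP1 and rose 2.92-fold (1.54, SE 0.18, adjusted p = 0.000459), from 9.78, 9.43 and 9.62 to 11.19, 11.02 and 11.25. Both genes separated the groups fully.
Tnip1, Tnip2 and Tnip3 encode ubiquitin-binding partners of A20, and they did not move alike. Tnip1 stood at 9.39, 9.87 and 9.26 in controls and 12.17, 11.27 and 12.20 with LPS, and rose 5.18-fold (2.37, SE 0.29, adjusted p = 0.000699). Tnip3 rose 3.86-fold (1.95, SE 0.28, adjusted p = 0.00212), from 9.93, 9.71 and 9.05 to 11.45, 11.29 and 11.80. For Tnip2 the difference was -0.01 (95% interval -0.45 to 0.44, adjusted p = 0.997), with mean levels of 8.24 ± 0.21 (SD, n = 3) in controls and 8.24 ± 0.09 with LPS. Its groups overlapped.
The deubiquitinase genes did not pass either. Cyld, whose product trims ubiquitin chains of the pathway, gave 0.22 (interval -0.25 to 0.70, adjusted p = 0.883), with 9.56, 9.45 and 9.13 against 9.49, 9.77 and 9.53. Otulin, specific for linear chains, gave 0.16 (interval -0.31 to 0.63, adjusted p = 0.928), with 8.64, 8.72 and 8.54 against 8.87, 8.67 and 8.84.

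Of the TRAF and adaptor genes, Tifa and Traf1 rose. Tifa, the adaptor that carries the signal of bacterial heptose sugars to TRAF6, stood at 8.79, 9.96 and 8.25 in controls and 12.12, 13.24 and 12.60 with LPS (change 3.66, SE 0.58, adjusted p = 0.00426). In each group the array that stands apart was the highest. Traf1, which lacks the ligase domain of other TRAFs, was dim in controls at 5.48, 5.22 and 5.16 and reached 8.23, 7.59 and 8.31 with LPS. It rose at least 4.81-fold against the receptor level (fitted change 2.76, SE 0.29, adjusted p = 0.000228). The other 3 genes separated the groups but stayed under the fold limit and above the limit on the adjusted p. Tank, a TRAF-binding regulator, gave 0.82 (SE 0.22, adjusted p = 0.105), with 12.98, 12.79 and 12.41 against 13.39, 13.52 and 13.73. Traf2, the partner of the cIAP ligases, gave 0.80 (SE 0.31, adjusted p = 0.413), with 9.42, 8.55 and 9.45 against 10.11, 9.69 and 10.01. Traf6, the ligase below the LPS receptor, gave 0.47 (SE 0.17, adjusted p = 0.354), with 9.05, 9.04 and 9.14 against 9.70, 9.49 and 9.44. The cluster of Traf3, which holds NIK in check, stood at 8.25, 8.09 and 8.03 in controls and 9.25, 8.48 and 9.52 with LPS. Its difference of 0.96 (SE 0.28, adjusted p = 0.17 in limma) did not pass and is a description only.
Zc3h12a encodes Regnase-1, an RNase that degrades inflammatory mRNAs. It rose 5.86-fold (2.55, SE 0.25, adjusted p = 0.00015), from 7.65, 8.38 and 7.74 in controls to 10.38, 10.69 and 10.36 with LPS, with no overlap.

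**Figure D2:**
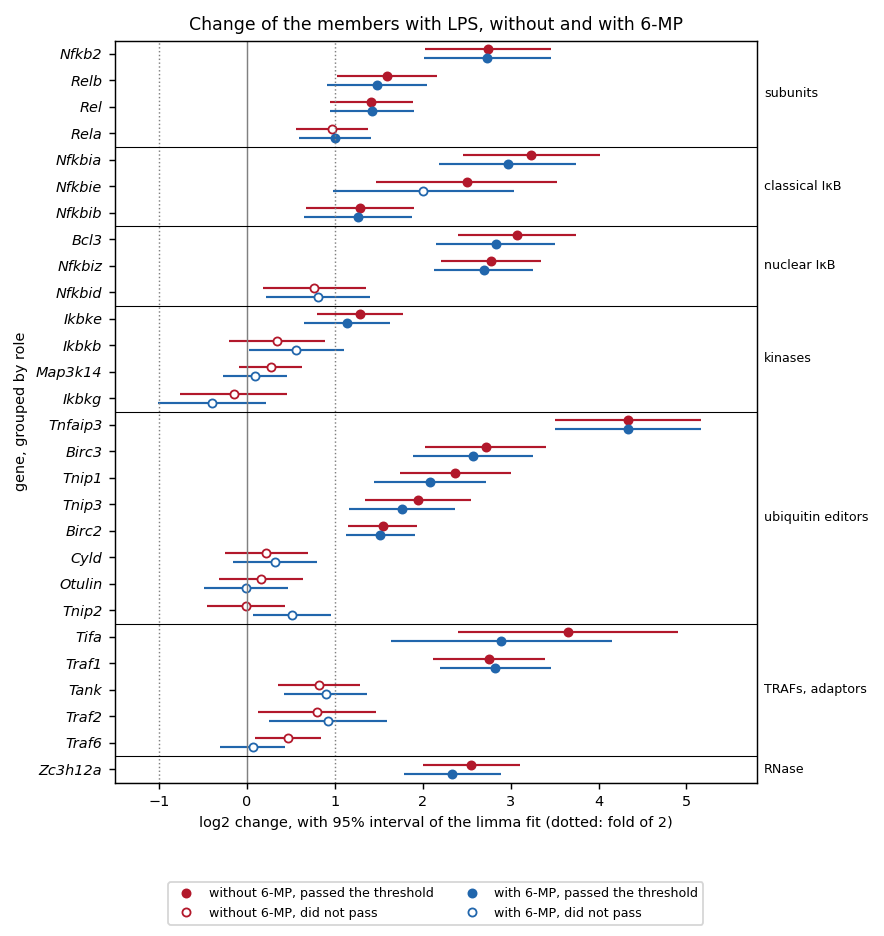
Log2 change of the 28 members with LPS (horizontal axis) without 6-MP (red) and with 6-MP (blue), with 95% intervals of the limma fit; filled points passed both the fold limit of 2 (dotted lines) and the limit on the adjusted p. Red and blue lie close together for most members, from Tnfaip3 at 4.34 and 4.33 down to Ikbkg at -0.15 and -0.39, and 16 members are filled in both.

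Whether pre-treatment with 6-MP altered this response was read from LPS + 6-MP against 6-MP. This contrasts other arrays than LPS against control, but 1 fit to all 12 arrays gave the spread for both. Again 17 of the 28 members were higher and 0 lower, beside 1.31% and 0.131% of all clusters, and the median change was 1.45. All LPS + 6-MP arrays lay above all 6-MP arrays for 22 members, against 7.13% of clusters. Of the members, 16 passed with and without 6-MP, Nfkbie only without it, Rela only with it and 10 in neither. Tnfaip3 had levels of 9.88, 9.15 and 8.73 with 6-MP and 12.95, 13.47 and 14.33 with LPS + 6-MP, so the change was 4.33 (SE 0.38, 20.1-fold, adjusted p = 6.17e-05). Nfkbia rose by 2.97 (SE 0.36, adjusted p = 0.000758), from 11.85, 11.57 and 10.80 to 13.92, 14.27 and 14.95, and Nfkb2 by 2.74 (SE 0.33, adjusted p = 0.000758), from 7.18, 7.23 and 7.50 to 9.31, 10.43 and 10.38. For these 3 genes the groups did not overlap.
Rela gave 1.00 (SE 0.19, adjusted p = 0.0171), from 13.67, 13.96 and 13.96 to 14.65, 14.76 and 15.18. Its changes without and with 6-MP thus lay on either side of the fold limit, 0.03 apart (interaction 0.03, interval -0.55 to 0.61). Without the 4 arrays that stand apart the calls of Rela were the other way round. Its change with 6-MP was then 1.01 (SE 0.22, adjusted p = 0.059 in limma) and did not pass, whereas that without 6-MP did. Nfkbie gave 2.01 (SE 0.47, adjusted p = 0.062), with 5.47, 4.37 and 4.37 against 5.98, 7.01 and 7.24. It was dim with 6-MP alone, and against the receptor level LPS + 6-MP was at least 1.95-fold higher. In both groups of Nfkbie the array that stands apart lay nearest to the other group, and without those arrays it passed, at least 2.54-fold higher (fitted change 2.76, SE 0.27, adjusted p = 0.000518). Tifa rose by 2.90 (SE 0.58, adjusted p = 0.023), from 9.94, 8.45 and 8.07 to 12.72, 10.92 and 11.52. Traf1 rose at least 5.31-fold against the receptor level (fitted change 2.83, SE 0.29, adjusted p = 0.000243).
A line through 0 over the 28 members had a slope of 0.93 for the changes with 6-MP on those without, beside 0.81 over all clusters. The correlation was 0.98 across the 28 genes and 0.82 over all clusters. Most clusters did not pass with LPS, and noise in small changes flattens a slope, so these slopes cannot be compared. Genes are not independent replicates, so slope and correlation are a description. The signed change was lower with 6-MP for 19 members and higher for 9, beside 11505 and 10701 of the 22206 clusters. With 1 array left out 12 to 17 members passed here, beside 192 to 327 of all clusters. Each of the 6 compared arrays cost at least 1 of the calls of Rela, Relb, Nfkbib, Ikbke and Tifa when left out, and each of these 5 genes was lost in 3 or 4 of the 6 fits (adjusted p = 0.0506 to 0.203). Of the 16 members that passed in both comparisons, 12 kept both calls in every such fit.

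No member was called for 6-MP itself. Arrays of different groups resembled each other in 3 sets that the labels do not give, and the fits treat all arrays as independent, so this shared variation stayed in the errors below. Without LPS, 0 members passed an unadjusted p under 0.05 and a fold of 2 in limma, beside 0.0630% of all clusters. At any fold 0 had an unadjusted p under 0.05 (2.13% of clusters), and 0 passed in the methods' t-test (5 of all clusters). The differences ran from -0.43 (Zc3h12a, interval -0.98 to 0.12) to 0.32 (Map3k14, interval -0.04 to 0.68). The 95% intervals of 26 of 28 members lay within a fold of 2, beside 86.4% of all clusters. The exceptions were Nfkbie, dim in both groups (fitted -0.09, interval -1.12 to 0.95), and Tifa (-0.18, interval -1.43 to 1.08). All 6-MP arrays lay above all controls for 2 members, beside 3.45% of clusters, and below them for 0, beside 2.46%. These were Map3k14, at 8.33, 8.45 and 8.56 with 6-MP, and Otulin, at 8.79, 8.87 and 8.74.
Under LPS, 0 of 28 members passed the same threshold, beside 0.117% of all clusters, and 0 in the methods' t-test, beside 18 of all clusters. At any fold 1 member had an unadjusted p under 0.05, beside 3.60% of clusters. This was Zc3h12a, with 10.38, 10.69 and 10.36 on the LPS arrays and 10.15, 9.35 and 9.99 with LPS + 6-MP. All LPS + 6-MP arrays lay under all LPS arrays, as in 3.55% of clusters, at a difference of -0.65 (SE 0.25, interval -1.20 to -0.10, adjusted p = 1 in limma). The differences of the 28 members ran from -0.94 to 0.24, and 23 of their intervals lay within a fold of 2, beside 83.5% of clusters. The 5 others were Zc3h12a, Tifa (-0.94, interval -2.19 to 0.32), Nfkbie (-0.58, interval -1.61 to 0.45), Bcl3 (-0.56, interval -1.23 to 0.12) and Nfkbia (-0.37, interval -1.15 to 0.41). For Tnfaip3 the difference was -0.05 (interval -0.88 to 0.77), and for Nfkb2 it was -0.05 (interval -0.77 to 0.66).
The value of Tifa moved with the arrays that stand apart. Its levels were 12.12, 13.24 and 12.60 with LPS and 12.72, 10.92 and 11.52 with LPS + 6-MP, with the highest value of each group on such an array. Without the 4 arrays the difference was -1.14 (SE 0.30, adjusted p = 0.951 in limma), which passed the unadjusted threshold, and it did so as well without LPS + 6-MP 1 (-1.43). Bcl3 then stood at -0.87 (SE 0.23, adjusted p = 0.951), under the fold limit. Nfkbie passed without LPS 2 (-1.12, adjusted p = 0.995 in limma).

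**Figure D3:**
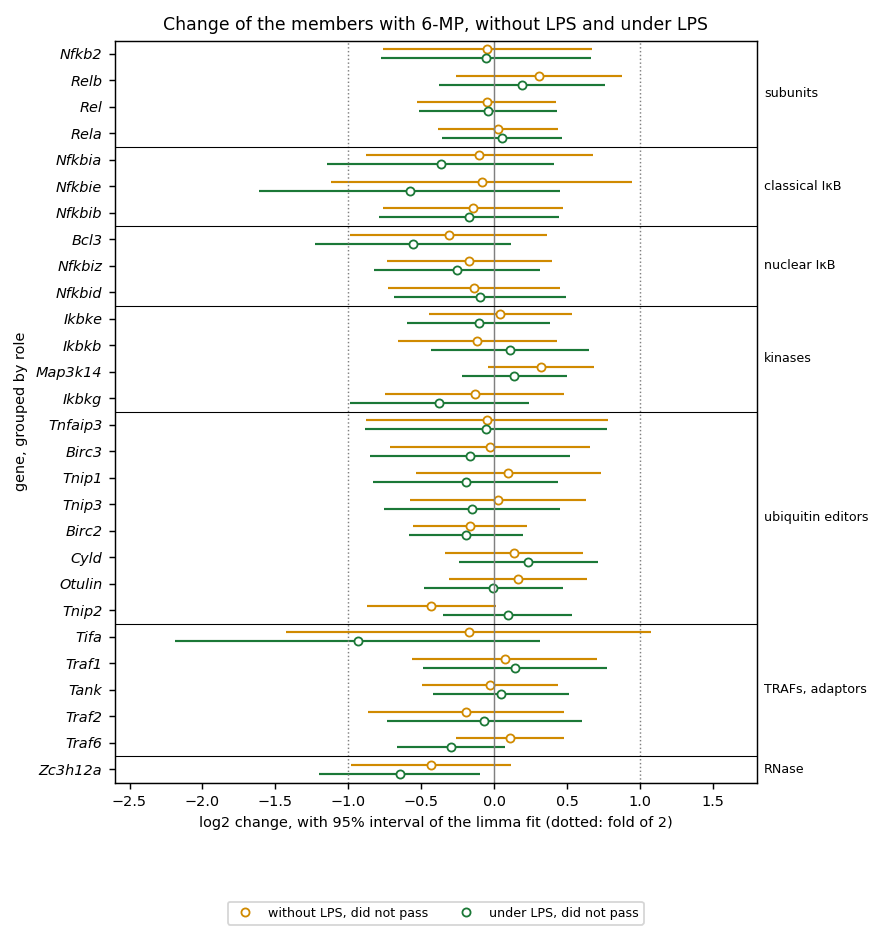
Log2 change of the 28 members with 6-MP (horizontal axis) without LPS (orange) and under LPS (green), with 95% intervals of the limma fit; open points did not pass an unadjusted p under 0.05 and a fold of 2 (dotted lines). All points are open, and under LPS the interval of Zc3h12a (-1.20 to -0.10) is the one that leaves out 0.

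The interaction of LPS and 6-MP, the difference between both LPS changes, was tested directly. In limma 0 of 28 members passed an unadjusted p under 0.05 and a fold of 2, beside 0.302% of all clusters, and 0 had an unadjusted p under 0.05 at any fold, beside 1.95%. The lowest p was that of Tnip2 (0.52, SE 0.29, interval -0.10 to 1.15, adjusted p = 1), whose LPS difference was -0.01 without and 0.52 with 6-MP. Of the intervals, 16 of 28 lay within a fold of 2, beside 57.7% of all clusters. Wide intervals were found among genes with a large LPS response, from -1.18 to 1.17 for Tnfaip3 and from -1.95 to 0.97 for Nfkbie.

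The 4 arrays that stand apart differed from the others of their groups in some members and not in others. Over the 28 members the mean difference was -0.04. Tifa was higher by 1.37 on average and Zc3h12a by 0.47, and both were highest in the array that stands apart in 4 of 4 groups. Traf2 was lower there (mean difference -0.60), as was Map3k14 (-0.19), again in 4 of 4 groups. The signs differed among the feedback genes. Zc3h12a was higher by 0.68 in control 2, 0.40 in 6-MP 1, 0.32 in LPS 2 and 0.48 in LPS + 6-MP 1. Nfkbiz was 0.45 and 0.79 higher without LPS and within 0.01 of the other arrays with it. Bcl3 gave 0.88 and 0.84 without LPS, -0.44 in LPS 2 and 0.52 in LPS + 6-MP 1. Tnfaip3 was 0.26 higher in control 2 and 0.95 higher in 6-MP 1 than in the other arrays of the group, but its difference was -0.91 in LPS 2 and -0.94 in LPS + 6-MP 1. Nfkbie gave 0.15 and 1.10 without LPS, at dim levels, and -1.62 and -1.14 with it, and Nfkb2 -1.03 and -1.09 in the arrays with LPS. Tnip1 gave 0.55 and 0.07 without LPS and -0.92 and -0.76 with it.
Of the 17 members that rose with LPS, 10 were highest in control 2 and 11 in 6-MP 1, beside 34.5% of all clusters in each, whereas 12 were lowest in LPS 2 and 10 in LPS + 6-MP 1, beside 37.2% and 36.6%. The arrays of 1 culture each are no group of the study, so no test was made.

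**Figure D4:**
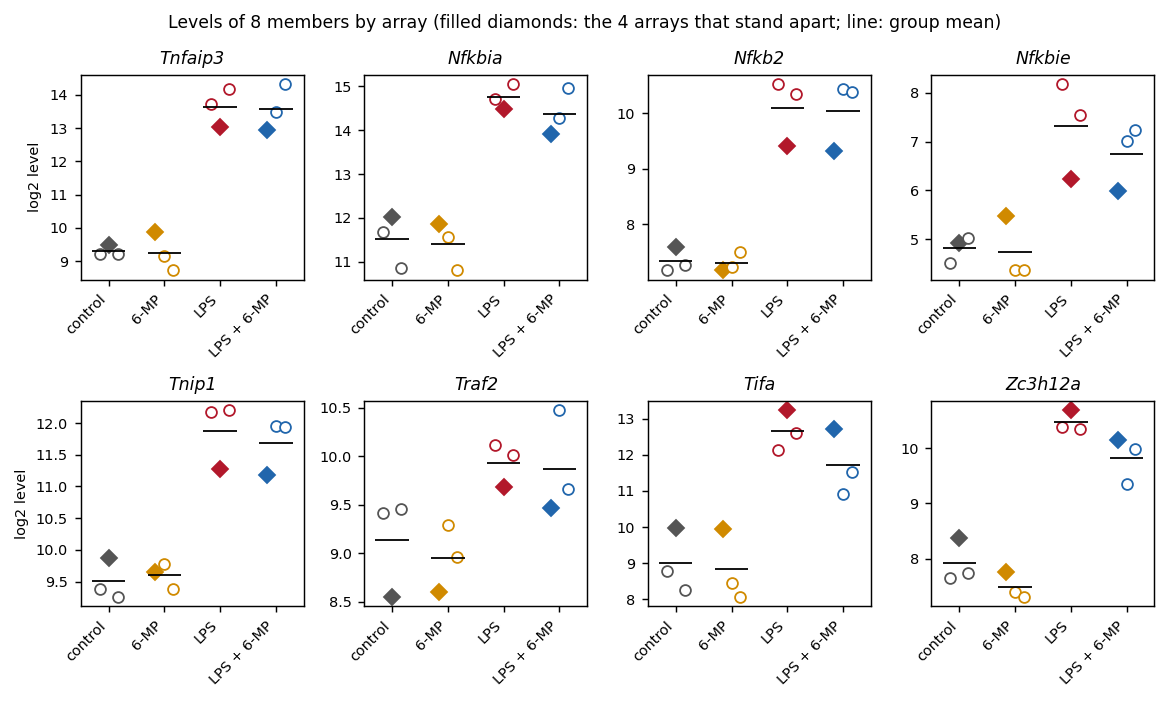
Log2 levels of 8 members (vertical axes, 1 panel each) on the 3 arrays of each group, with lines at the group means and filled diamonds for control 2, 6-MP 1, LPS 2 and LPS + 6-MP 1. The diamonds are the lowest points of the LPS groups for Tnfaip3, Nfkbia, Nfkb2, Nfkbie and Tnip1, the lowest in all groups for Traf2 and the highest in all groups for Tifa and Zc3h12a.

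Of 46 further genes of the pathway, 11 were higher with LPS and 0 lower, beside 1.51% and 0.0946% of all clusters, and 10 were higher with LPS + 6-MP against 6-MP, beside 1.31%. Irak3, a kinase-like inhibitor of the LPS receptor complex, rose 10.5-fold (3.39, SE 0.39) and the TNF receptor gene Tnfrsf1b 13.5-fold (3.75, SE 0.39). The LPS carrier gene Lbp rose by 2.83, the receptor genes Cd40 by 1.77 and Il1r1 by 1.54, and the kinase gene Map3k8 by 1.87 on the log2 scale. Myd88, the adaptor of the LPS receptor, rose 2.99-fold (adjusted p = 0.00373 in limma), and Malt1, a protease of the CARD pathway, 2.67-fold. Cd14 passed as well, with mean levels of 9.21 in controls and 12.28 with LPS. The intracellular sensor genes Nod1 and Nod2, dim in controls, were at least 1.92-fold and 1.58-fold higher against the receptor level (adjusted p = 0.04 and 0.000454 in limma). Of 6 genes of the TAK1 complex 0 passed in limma, 0 at an unadjusted p under 0.05 (9.01% of all clusters), and the 6 intervals lay within a fold of 2, as did those of 79.3% of all clusters.
Tlr4, the LPS receptor gene, gave -0.62 (adjusted p = 0.516), with each LPS array below each control array. The kinase gene Tbk1 gave 0.40 (adjusted p = 0.545). Of the genes of the linear ubiquitin ligase complex, Rnf31 gave 1.02 (adjusted p = 0.0608), Rbck1 0.25 and Sharpin -0.25. Of 18 measured target genes of NF-κB, among them Tnf, Il6 and Icam1, 16 were higher with LPS (1.51% of all clusters) and 16 with LPS + 6-MP against 6-MP (1.31%).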

How the data were processed

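The values are the authors' log2 levels per transcript cluster of 12 Clariom S arrays, processed and deposited by the authors with the Transcriptome Analysis Console 4.0.1.36. The normalization, the background correction and the genome build are not given in the sources used here, and no depth applies to arrays. The file's 28846 entries include 6640 controls, and without these 22206 clusters were tested, unfiltered. The platform's table names 19572 clusters with 1 symbol, and the highest-mean cluster stood for a symbol.

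Limma 3.58.1 in R 4.3.3 was fitted to 4 group means (8 residual and 4.25 prior degrees of freedom) and tested on simulated data, with Benjamini-Hochberg adjustment over all clusters. LPS comparisons required a 2-fold change with an adjusted p under 0.05, and 6-MP comparisons and the interaction the study's unadjusted p under 0.05 with that fold. An exact permutation test of 3 arrays against 3 cannot go below p = 0.1, so p values come from limma. Dim group values of called members were raised to 5.78 for bounds. The members, lists and arrays that stand apart were chosen with earlier results of these data known. Each member is named with its values, other pathway genes where they passed without overlap (at most 10, and Tlr4, Myd88, Tbk1 and the linear ubiquitin ligase genes in any case), and targets by count.

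The replicate numbers did not pair the arrays. The alternatives included fitting the compared groups alone, the replicate block, an intensity trend, quantile normalization, median centring, filters on dim or multi-symbol clusters, the methods' t-test, other thresholds, the lowest-mean cluster, and leaving out arrays.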

Additional observations from a re-analysis of the deposited data

How the results depend on the processing

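Of the values of single members under all alternatives, 2577 kept their side of the threshold, 70 no longer passed and 13 newly passed. Among values that passed in the main fit or the alternative, 0 changed direction. Direction was not compared for values that passed in neither. In the methods' t-test with adjustment 0 members passed with LPS against control and 0 with LPS + 6-MP against 6-MP. The same test passed 0 of all clusters in both comparisons, so its count cannot tell the members from other clusters. At an unadjusted p under 0.05 with the fold limit this t-test passed 17 and 18 members, with lowest adjusted p values of 0.117 and 0.294. All clusters were not counted at that threshold in the t-test. In limma that threshold passed 17 and 18 members as well, beside 554 and 546 of all 22206 clusters. The paper names Student's t-test among its Prism statistics, whereas its arrays were analysed with the Transcriptome Analysis Console. A fit to the compared groups alone gave 17 and 12 members, beside 344 and 202 of all clusters. The main fit passed 356 and 320 of all clusters. Leaving out 1 array gave 15 to 18 members for LPS against control and 12 to 17 for LPS + 6-MP against 6-MP, with medians of 1.40 to 1.56 and 1.25 to 1.54. For LPS + 6-MP against LPS, leaving out 1 array gave 0 to 1 members, beside 42 to 204 of all clusters. It gave 0 to 0 members for 6-MP against control (24 to 45 of all clusters) and the interaction (91 to 166). Without LPS replicate 2 the 1 member was Nfkbie, and without LPS + 6-MP replicate 1 it was Tifa. With no limit on the fold 1 member, Zc3h12a, passed for LPS + 6-MP against LPS, beside 800 of all clusters. Without the 4 arrays that stand apart 1 member, Tifa, passed there, beside 95 of all clusters. Without those 4 arrays the median for LPS + 6-MP against 6-MP was 1.67. The cause of these shifts was not tested. A looser motif, GGG and CC with any 5 bases between them on either strand, was found in 20 of 25 members and 53.5% of all genes, against 12 for the κB consensus.

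Same-numbered arrays correlated over 0.1 in 6 of 18 pairs (-0.45 to 0.60), and 8 of 36 closest arrays shared a number, so the numbers do not pair them. The 18 highest of all correlations between groups (0.27 to 0.65) joined the arrays in 3 sets of 4, with 1 array of each group in each, and the highest between sets was 0.12. The arrays that stand apart form 1 of them. The labels give no such sets, so no fit used them as a block, and this shared variation was not removed. With the replicate block 16 and 16 members passed in the LPS comparisons, without Nfkbib in both, beside 336 and 290 of all clusters. In the 6-MP comparisons and the interaction 0 members passed with this block, beside 14, 27 and 69 of all clusters.

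The number of arrays and signal over background limit the precision, and small differences of the kinases, deubiquitinases and TRAFs were not detectable here beyond their intervals.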
